A study of Mus musculus with 12 samples.

Results

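Abca1, Abcg1, Scarb1 and Apoe are 4 mouse genes by which cells hand cholesterol to lipoproteins outside the cell. Their open chromatin was followed in aortic endothelial cells (MAECs), the cells that line the aorta, by ATAC-seq, an assay that uses a transposase to insert sequencing adapters wherever DNA is accessible. The members were the ATAC-seq peaks whose nearest protein-coding gene, within 100 kb in the genome build GRCm38, was 1 of these 4 genes out of 21631. They came to 29 peaks of 26275 under WDM-WDO, 23 of 28319 under WDM-CDO, 18 of 18962 under CDM-WDO and 17 of 22178 under CDM-CDO. Merged across the lists wherever they overlapped, they made 39 regions of 48003. The genes were chosen by values measured in these lists, the presence of peaks across the diets, so the presence and number of their peaks are given as a description and without a test.

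The 4 groups cross the diet of the mothers (M) with that of the offspring (O), each CD or WD as the labels abbreviate them, under a series title that speaks of a maternal high-fat diet. In WDM-WDO both had WD, in WDM-CDO the mothers alone, in CDM-WDO the offspring alone, and in CDM-CDO neither. The design text says of both WDO groups that WD was given again, over 4 weeks, and when it was first given is not described. M and O were read as mothers and offspring, and strain, genotype, sex and age are not given in the sources used here. Each group had 2 ATAC-seq samples but 1 peak list, so no value has a replicate error and no difference could be tested between animals. The names of the peaks carry a mark of 12w in both WDO lists and of 08w in both CDO lists, so the diet of the offspring and this mark cannot be told apart.

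Cholesterol that builds up in a cell is in part oxidised to oxysterols, which bind the nuclear receptors LXRα and LXRβ. With their partner RXR these receptors switch on Abca1, Abcg1 and Apoe. Abca1 is a transporter that loads cholesterol and phospholipid onto lipid-poor apolipoprotein A-I, and Abcg1 is a transporter that passes cholesterol on to mature HDL particles. Scarb1 encodes SR-BI, an HDL receptor that moves cholesterol in both directions and in endothelium also carries lipoproteins and HDL signals. Apoe encodes apolipoprotein E, which macrophages and liver secrete and which clears lipoprotein remnants from the blood.

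The promoters of Abca1 and Apoe are shown because every list had a peak over the first and no list had one over the upstream start site of the second. RefSeq promoter windows of GRCm38.p6, each running from 250 bases before to 50 bases after a start site, were found for Abca1 (1 window) and for Apoe (3 windows). The Abca1 window lies at chr4:53159846-53160145 on the minus strand. Capitals mark, in order, a GC box, an E-box, a second GC box and an imperfect repeat of the receptor site.
Abca1 promoter: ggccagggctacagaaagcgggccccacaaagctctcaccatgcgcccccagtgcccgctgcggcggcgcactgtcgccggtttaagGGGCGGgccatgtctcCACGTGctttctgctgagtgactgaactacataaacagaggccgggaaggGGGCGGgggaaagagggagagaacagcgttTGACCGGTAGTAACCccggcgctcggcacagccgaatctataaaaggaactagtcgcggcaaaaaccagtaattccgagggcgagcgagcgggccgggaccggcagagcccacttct
All 300 bases of this window lay inside a peak in each of the 4 lists. The window had 62.7% G and C and 26 CpG sites, against medians of 52.7% and 7 over 32817 promoter windows of the same table. GC boxes (GGGCGG on either strand), bound by Sp1 and KLF proteins, stood at -163 to -158 and at -97 to -92 from the start site, and 35.6% of all windows held at least 1. An E-box (CACGTG) stood at -147 to -142, as in 7.15% of windows. The repeat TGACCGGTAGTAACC, at -67 to -53 or chr4:53159948-53159962, has the direct-repeat layout that LXR with RXR is known to bind. Its letters, TGACC followed after 5 bases by TAACC, were searched for only after the sequence was seen, and 0.0488% of windows held them on either strand. The stricter form, AGGTCA repeated after 4 bases, was not in the Abca1 window and was in 0.0152% of all windows. The AP-1 (TGACTCA), ETS (CCGGAAG), PU.1 (GAGGAAGT), SREBP (TCACCCCAC), C/EBP (TTGCGCAA) and GATA-factor (AGATAA) letters were not in the Abca1 window on either strand.

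The Apoe gene lies on the minus strand, and its window around the second of 3 start sites, at chr7:19698572-19698871, is the window that a peak reached. Capitals mark the 223 bases inside the WDM-WDO peak.
Apoe second promoter window: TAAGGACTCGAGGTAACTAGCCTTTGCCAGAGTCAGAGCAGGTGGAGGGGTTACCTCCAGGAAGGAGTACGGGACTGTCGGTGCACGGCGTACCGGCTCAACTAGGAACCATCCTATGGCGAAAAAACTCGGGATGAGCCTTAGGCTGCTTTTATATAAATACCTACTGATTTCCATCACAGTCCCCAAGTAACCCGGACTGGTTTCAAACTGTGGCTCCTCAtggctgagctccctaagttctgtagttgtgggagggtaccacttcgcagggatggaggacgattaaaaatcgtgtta
None of the motifs searched was in any of the 3 Apoe windows. The Apoe window around the upstream start site, chr7:19699139-19699438, held no base of a peak in any list. The gene span runs on to 19701310, upstream of that window, and no promoter window was found for this end of the gene.

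Peak height differed between the lists and bears on what a missing peak can show. The whole number of reads stacked at each summit, here called the pileup, was recovered from the deposited fold enrichment and -log10 p. Its median over all peaks was 39 reads under WDM-WDO, 38 under WDM-CDO, 31 under CDM-WDO and 36 under CDM-CDO. The genome background, taken as the lowest local background at any peak of a list, was 6.08 under WDM-WDO, 5.59 under WDM-CDO, 5.49 under CDM-WDO and 4.84 under CDM-CDO. At strong peaks shared by 2 lists, taken above the genome background, the median ratio was 1.41 for WDM-WDO over CDM-WDO, 1.48 for WDM-CDO over CDM-CDO, 0.830 for CDM-WDO over CDM-CDO, 0.791 for WDM-WDO over WDM-CDO and 1.16 for WDM-WDO over CDM-CDO. These medians compare the height of strong peaks and are not ratios of read depth. Strong peaks were lower in WDM-WDO than in WDM-CDO, and lower in CDM-WDO than in CDM-CDO, although the background was higher in the WDO list of both pairs. Ratios called scaled below were divided by these medians, and the pileups expected for missing calls use them too. Each is read against the central 95% of the scaled ratios at strong shared peaks, although weaker peaks scatter more by counting alone. Strong peaks were the top 10% of both lists. Apart from the WDM-CDO peak of Abcg1 9.55 kb inside the gene, every member peak was weaker than that. No shared member region was thus among the strong shared peaks, and a ratio outside their range is not a test of a difference. Of the shared member regions, the scaled ratio lay above that range at 5 and below it at 0 of 13 for WDM-WDO over CDM-WDO, and at 4 and 3 of 15 for WDM-CDO over CDM-CDO. It lay above at 1 and below at 2 of 9 for CDM-WDO over CDM-CDO, above at 6 and below at 4 of 16 for WDM-WDO over WDM-CDO, and above at 5 and below at 1 of 13 for WDM-WDO over CDM-CDO.

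The cells were labelled MAECs, and the peak lists were set against markers of endothelium and of other cells of the vessel wall. Among 20 endothelial markers, 7 under WDM-WDO, 10 under WDM-CDO, 7 under CDM-WDO and 8 under CDM-CDO had a peak within 1 kb of a gene end, compared with 47.6% under WDM-WDO, 51.2% under WDM-CDO, 40.2% under CDM-WDO and 48.1% under CDM-CDO over all genes. These shares of endothelial markers did not stand above those of all genes. Tie1, Kdr, Flt1 and Eng had a gene-end peak in every list, and Erg, Sox7, Cldn5, Esam, Icam2 and Nos3 in some lists. Tek, Fli1, Sox17, Vwf, Egfl7, Emcn, Robo4 and Ptprb had none in any list. Cdh5 and Pecam1, the defining junction proteins of endothelium, also had no gene-end peak in any list though each had assigned peaks in every list. Those of Cdh5 numbered 3 under WDM-WDO, 6 under WDM-CDO, 4 under CDM-WDO and 1 under CDM-CDO, and those of Pecam1 1 under WDM-WDO, 6 under WDM-CDO, 2 under CDM-WDO and 1 under CDM-CDO. All endothelial markers but Robo4 had an assigned peak in at least 1 list. Peaks assigned to the 20 endothelial markers numbered 36 under WDM-WDO, 59 under WDM-CDO, 43 under CDM-WDO and 31 under CDM-CDO. Among 16 macrophage markers, 11 under WDM-WDO, 5 under WDM-CDO, 4 under CDM-WDO and 5 under CDM-CDO had a gene-end peak. Peaks assigned to the macrophage markers numbered 32 under WDM-WDO, 15 under WDM-CDO, 11 under CDM-WDO and 13 under CDM-CDO, and C1qc had none in any list. Trem2, C1qb and Mrc1, all macrophage genes, had peaks in WDM-WDO alone, and Csf1r, Adgre1 and Itgam had their gene-end peak there alone. Other macrophage markers differed. Cd68, Cd14 and Mertk had a gene-end peak in every list, C1qa in WDM-WDO and CDM-CDO, and Cd163 in CDM-WDO alone. Macrophages use Abca1, Abcg1 and Apoe heavily, and the part of these cells in the results below was not tested. In such bulk samples a larger share of cells of another type and more accessible DNA per cell cannot be told apart. Of 10 lymphocyte markers, 5 under WDM-WDO, 7 under WDM-CDO, 1 under CDM-WDO and 6 under CDM-CDO had a gene-end peak, and of 10 smooth muscle markers 2 under WDM-WDO, 4 under WDM-CDO, 2 under CDM-WDO and 4 under CDM-CDO. The counts were 2 or 3 of 8 fibroblast markers and 1 or 2 of 6 adipocyte markers in each list. Myh11, Cnn1, Lmod1 and Myocd of smooth muscle and Col3a1, Dcn and Lum of fibroblasts had no assigned peak in any list. Itga8 and Smtn of smooth muscle and Gsn, Pdgfra and Dpt of fibroblasts had assigned peaks in every list. The remaining markers of these cell types had peaks in some lists only.

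**Figure D1:**
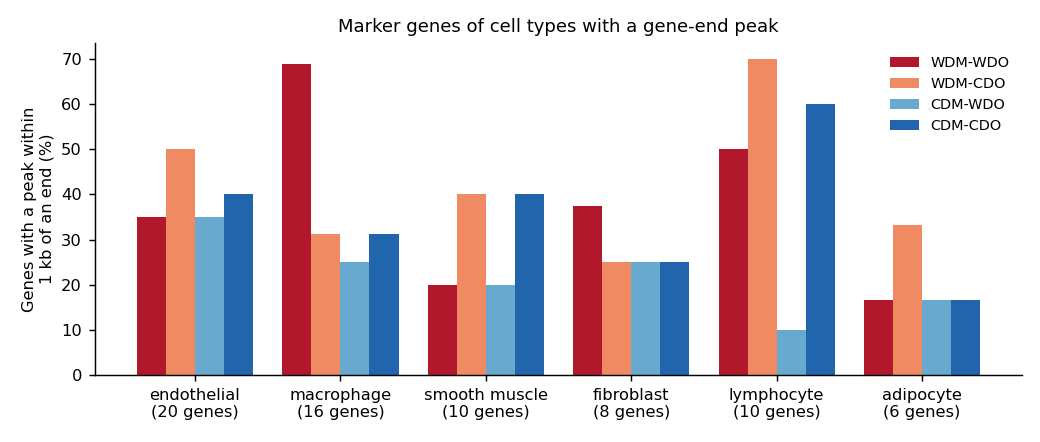
Markers of each cell type with a peak within 1 kb of a gene end, in percent of the markers listed (bars), for the 4 diet groups. Macrophage markers had 11 of 16 in WDM-WDO and 4 or 5 of 16 in the other lists.

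Abca1 had the most peaks of the 4 genes in WDM-WDO, WDM-CDO and CDM-WDO, and its number differed most between groups. It had 18 peaks under WDM-WDO, 11 under WDM-CDO, 9 under CDM-WDO and 6 under CDM-CDO. With lists of equal length it had 14 under WDM-WDO, 7 under WDM-CDO, 9 under CDM-WDO and 6 under CDM-CDO, so that WDM-CDO fell below CDM-WDO. With a -log10 q of 5 or more it had 13 under WDM-WDO, 7 under WDM-CDO, 6 under CDM-WDO and 4 under CDM-CDO, and within 10 kb of the gene 11 under WDM-WDO, 6 under WDM-CDO, 2 under CDM-WDO and 1 under CDM-CDO. WDM-WDO was highest and CDM-CDO lowest under each of these choices. Abcg1 had 7 under WDM-WDO, 8 under WDM-CDO, 5 under CDM-WDO and 7 under CDM-CDO. Scarb1 had 4 peaks under CDM-WDO and 3 in each other list, and Apoe had 0 peaks under CDM-WDO and 1 in each other list. Abca1 was therefore the gene behind most of the excess in WDM-WDO, and the other 3 genes varied by at most 3 peaks. The macrophage markers were also highest in WDM-WDO, with 32 assigned peaks there and 11 to 15 in the other lists, and their part in the Abca1 counts was not tested. Of the 16239 genes with a region, 2 had at least 12 more peaks in WDM-WDO than in CDM-CDO (0.0123%), namely Abca1 and Lpp, a cell adhesion gene named after its values were seen. The cutoff of 12 was the difference of Abca1 itself, so Abca1 was included by construction. This share therefore gives a rank and is not a test. A gene with fewer than 12 peaks in WDM-WDO could not reach the cutoff. Lpp had 17 peaks under WDM-WDO, 16 under WDM-CDO, 6 under CDM-WDO and 3 under CDM-CDO. Abca1 was exceeded in peak number by 5 genes under WDM-WDO, 46 under WDM-CDO, 13 under CDM-WDO and 168 under CDM-CDO.

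**Figure D2:**
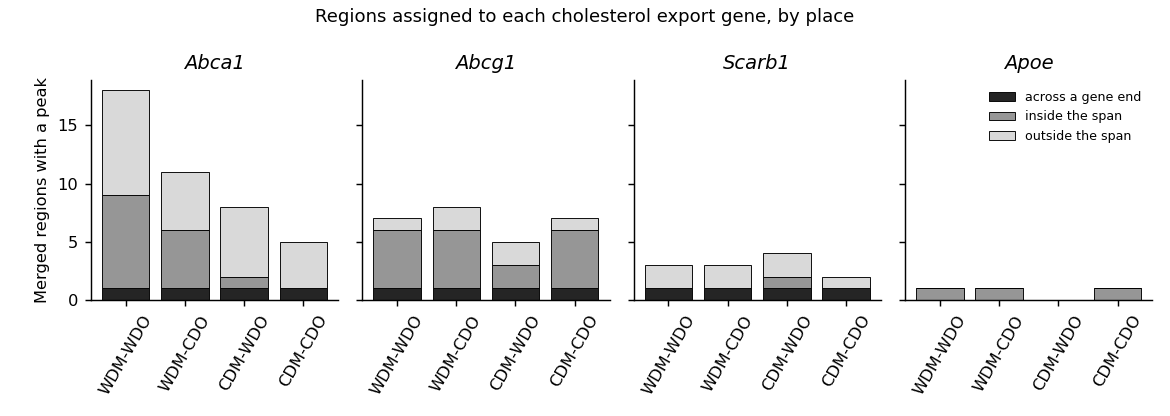
Number of merged regions of Abca1, Abcg1, Scarb1 and Apoe with a peak in each diet group, stacked by place (across a gene end, inside or outside the span), with 1 peak list per group and no error bars. Abca1 has 18 regions under WDM-WDO, 11 under WDM-CDO, 8 under CDM-WDO with 9 peaks, and 5 under CDM-CDO with 6 peaks, and the other genes stay between 0 and 8.

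Presence of a region in 1 list of a pair was counted beside the same share over all regions near a gene. The comparisons share lists and are not independent of each other. In WDM-WDO against CDM-CDO, 16 of 31 member regions were in WDM-WDO only and 2 in CDM-CDO only, where 34.1% and 21.3% of all regions were. Abca1 held 13 of the 16, out of 18 of its regions in either list (72.2%), and none of its regions was in CDM-CDO only. In WDM-WDO against CDM-WDO, 16 of 33 member regions were in WDM-WDO only and 4 in CDM-WDO only, with 42.8% and 15.9% over all regions. The member share lay near that background. Abca1 had 11 (57.9%) and 1 (5.26%) of 19, and its difference from the background was not tested. In WDM-CDO against CDM-CDO, 8 of 23 belonged to WDM-CDO only and 0 to CDM-CDO only, with 32.3% and 13.7% over all regions. The member share of 34.8% in WDM-CDO only lay near that background. Abca1 contributed 6 of the 8, out of 11 (54.5%), and this was likewise not tested.

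Between the diets of the offspring, the members split both ways. In CDM-WDO against CDM-CDO, 8 of 23 regions were in CDM-WDO only and 6 in CDM-CDO only, with 21.4% and 36.2% over all regions. Abca1 had 4 and 1 of 9 and Abcg1 had 2 and 4 of 9. In WDM-WDO against WDM-CDO, 13 of 36 were in WDM-WDO only and 7 in WDM-CDO only, with 24.9% and 29.7% over all regions, and Abca1 had 10 and 3 of 21. Abca1 regions thus lay more often in the WDO list of both pairs, against the direction of all regions, and this difference was not tested.

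The Abca1 gene spans chr4:53030789-53159988 and its start site lies at 53159895. Slc44a1, the nearest gene beyond the start, begins about 280 kb away, and Nipsnap3b lies 8.73 kb beyond the other end. Of 21 merged Abca1 regions, 10 lay inside the span, 1 lay across the start and 10 lay outside. The inside regions were called 8 times under WDM-WDO, 5 times under WDM-CDO, once under CDM-WDO and not at all under CDM-CDO. The outside regions were called 9 times under WDM-WDO, 5 times under WDM-CDO, 6 times under CDM-WDO and 4 times under CDM-CDO. The maternal WD lists therefore held nearly all of the calls within the gene body. These lists also held more over all regions near a gene. Between WDM-WDO and CDM-WDO, 42.8% were in WDM-WDO only and 15.9% in CDM-WDO only. Between WDM-CDO and CDM-CDO, 32.3% were in WDM-CDO only and 13.7% in CDM-CDO only. Asking for a -log10 q of 5 or more left 4 under WDM-WDO, 2 under WDM-CDO, 1 under CDM-WDO and 0 under CDM-CDO of the inside peaks. The most distant region taken in lay 90.2 kb beyond the start and the nearest left out lay 103.9 kb beyond it, with 29 reads in WDM-WDO.

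**Figure D3:**
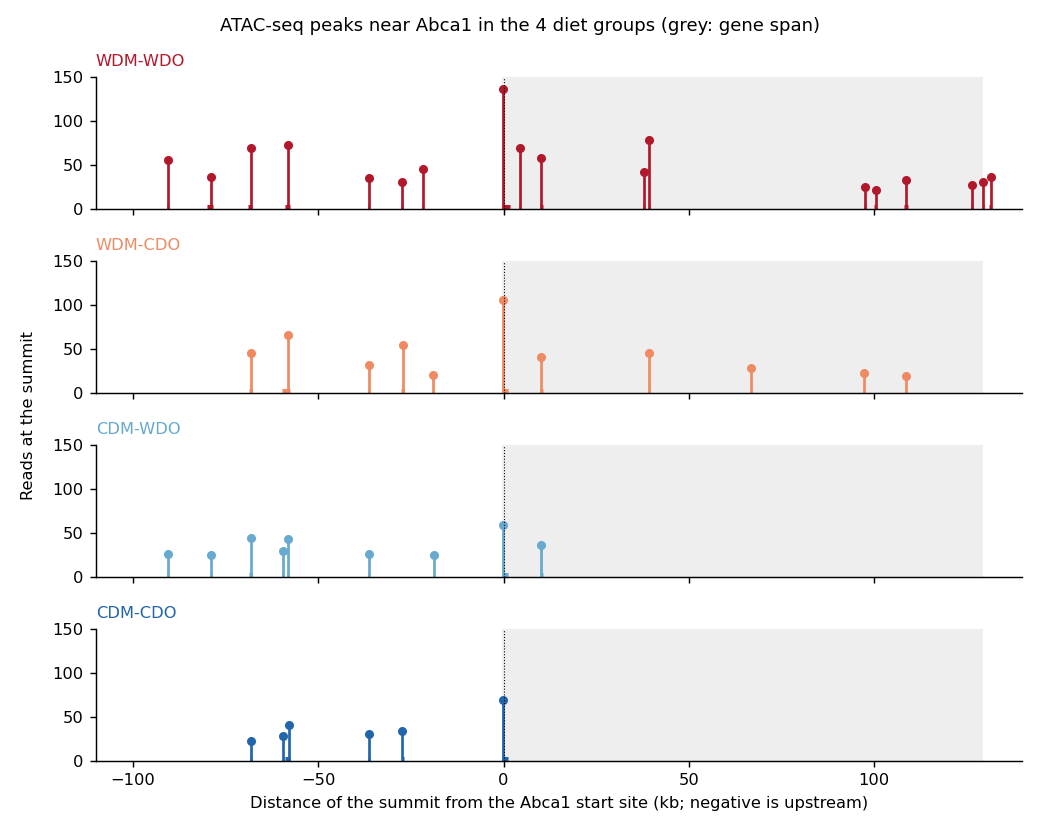
Abca1 peaks by distance of the summit from the start site in kb (negative values lie upstream), 1 row per diet group, with the recovered pileup in reads as the height of each stem and the gene span in grey. The region at the start and those near 36, 58 and 68 kb upstream are in all 4 lists, and CDM-CDO has no peak inside the gene.

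Of the 21 Abca1 regions, 4 were in all 4 lists, where 24.6% of all regions near a gene were. The tallest of these 4 was the promoter. Its summit held 136 reads under WDM-WDO, 106 under WDM-CDO, 59 under CDM-WDO and 69 under CDM-CDO. The summit lay 56 bp under WDM-WDO, 112 under WDM-CDO, 99 under CDM-WDO and 41 under CDM-CDO before the start site. The receptor repeat shown above lay 0 bp under WDM-WDO, 45 under WDM-CDO, 32 under CDM-WDO and 12 under CDM-CDO from the summit. The second GC box lay 36 bp under WDM-WDO, 15 under WDM-CDO, 2 under CDM-WDO and 51 under CDM-CDO from the summit. In WDM-CDO and CDM-WDO that GC box was nearer the summit than the repeat. The promoter thus had a peak under every diet, with the 4 summits within 71 bp of each other. Above background and scaled to the strong shared peaks of CDM-CDO, it stood at 112 reads under WDM-WDO (93.0 to 133, 95% counting interval), 67.8 under WDM-CDO (54.8 to 82.8), 64.5 under CDM-WDO (47.5 to 85.1) and 64.2 under CDM-CDO (48.8 to 82.5). After scaling WDM-WDO was the high list, its interval overlapped none of the others, and the other 3 overlapped. The scaled ratio was 1.74 for WDM-WDO over CDM-CDO, outside the 0.686 to 1.44 of strong shared peaks, and 1.72 for WDM-WDO over CDM-WDO, outside 0.730 to 1.35. It was 1.63 for WDM-WDO over WDM-CDO, outside 0.714 to 1.40, but 1.06 for WDM-CDO over CDM-CDO and 1.01 for CDM-WDO over CDM-CDO, inside their spreads of 0.753 to 1.28 and 0.708 to 1.43. The difference between WDM-WDO and WDM-CDO rested on the scaling. Before it, their counting intervals overlapped, at 114 to 161 reads for WDM-WDO and 86.8 to 128 for WDM-CDO, and the ratio above background was 1.29. Without scaling that ratio was 2.43 for WDM-WDO over CDM-WDO and 2.03 for WDM-WDO over CDM-CDO.

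The region 68.1 kb upstream, chr4:53227748-53228714, had 70 reads under WDM-WDO, 46 under WDM-CDO, 44 under CDM-WDO and 22 under CDM-CDO. Scaled, it stood at 55.0 reads under WDM-WDO (41.7 to 70.9), 27.3 under WDM-CDO (19 to 37.7), 46.4 under CDM-WDO (31.9 to 64.6) and 17.2 under CDM-CDO (8.95 to 28.5). Both WDO lists were higher than the CDO list of the same maternal diet, with scaled intervals that did not overlap. Before scaling the intervals of both pairs overlapped. They were 54.6 to 88.4 reads for WDM-WDO and 33.7 to 61.4 for WDM-CDO, and 32.0 to 59.1 for CDM-WDO and 13.8 to 33.3 for CDM-CDO. The scaled ratio was 2.0 for WDM-WDO over WDM-CDO and 2.71 for CDM-WDO over CDM-CDO, and both lay outside the spread of strong shared peaks. It was 1.59 for WDM-CDO over CDM-CDO, outside that spread, and 1.17 for WDM-WDO over CDM-WDO, inside it. The region 58.1 kb upstream had 73 reads under WDM-WDO, 66 under WDM-CDO, 43 under CDM-WDO and 41 under CDM-CDO. That 36.3 kb upstream had 35 reads under WDM-WDO, 32 under WDM-CDO, 26 under CDM-WDO and 30 under CDM-CDO. The 4 scaled intervals of each overlapped. The scaled ratio at 58.1 kb was 1.59 for WDM-WDO over CDM-CDO, above the 0.686 to 1.44 of strong shared peaks, and that at 36.3 kb was 0.709 for WDM-CDO over CDM-CDO, below 0.753 to 1.28. The region 27.3 kb upstream, chr4:53186690-53187561, went the other way between the WDM lists. It had 31 reads under WDM-WDO, 55 under WDM-CDO and 34 under CDM-CDO, with no call in CDM-WDO. Its scaled ratio of 0.637 for WDM-WDO over WDM-CDO lay below 0.714 to 1.40. Nearer the gene, the region 21.9 kb upstream had 46 reads and was in WDM-WDO alone, and that 18.9 kb upstream had 21 reads in WDM-CDO and 25 in CDM-WDO.

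**Figure D4:**
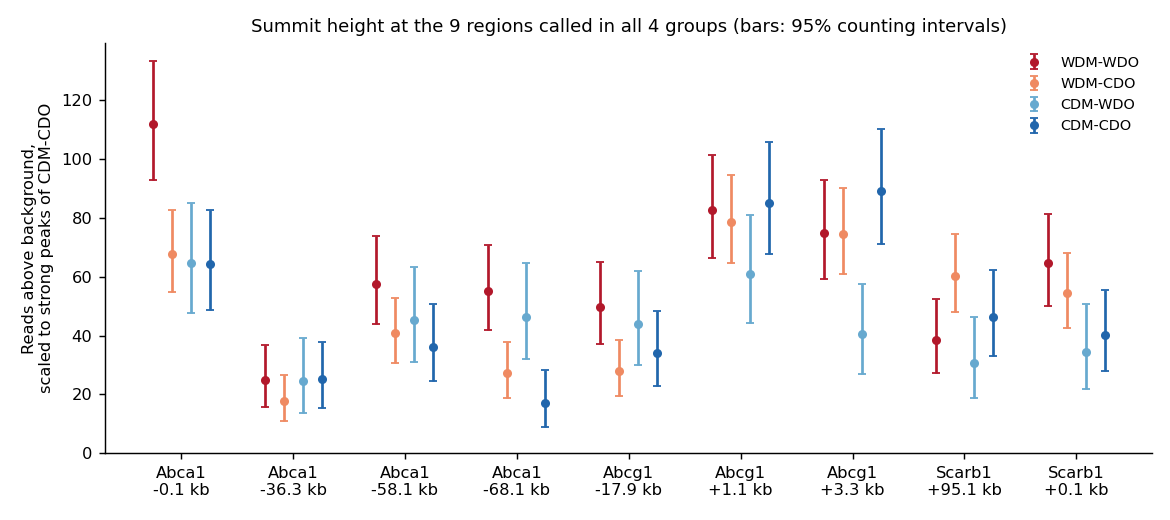
Summit pileup above background at the member regions found in all 4 lists, in reads scaled to the strong shared peaks of CDM-CDO, with 95% Poisson counting intervals, for each diet group. After scaling, WDM-WDO stands at 112 at the Abca1 promoter and the other groups between 64.2 and 67.8, and at 68.1 kb upstream both WDO groups stand above both CDO groups.

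Further upstream, Abca1 had a pair of regions that were in both WDO lists and in neither CDO list. Over all 41492 regions near a gene, 1.52% had this pattern. The region 90.6 kb upstream, chr4:53250181-53250814, had 56 reads in WDM-WDO and 26 in CDM-WDO. That 79.0 kb upstream, chr4:53238300-53239936, had 37 reads in WDM-WDO and 25 in CDM-WDO. Both regions were higher in WDM-WDO before scaling. For a list without a call, the pileup expected from the calling list after scaling was divided by the lowest pileup that a call needed there, with the local background scaled in the same way. A value near 1 leaves the expected pileup close to what a call needed. The value starts from a list where the region was tall enough to be called, so it tends to run high. It is given as a description and does not test whether a missing peak was absent. For the region 90.6 kb upstream this value was 3.27 in WDM-CDO and 2.66 in CDM-CDO, expected from WDM-WDO, and 2.01 in WDM-CDO and 1.64 in CDM-CDO, expected from CDM-WDO. For the region 79.0 kb upstream the 4 values lay between 1.49 and 1.86.

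Inside the gene, the region 39.3 kb downstream of the start, chr4:53120260-53120740, had 79 reads in WDM-WDO and 45 in WDM-CDO, and no call in either CDM list. From WDM-WDO, 2.04 times the pileup needed was expected under CDM-WDO and 2.33 times under CDM-CDO, and from WDM-CDO 1.20 times under CDM-WDO and 1.37 times under CDM-CDO. The region 10.1 kb downstream, chr4:53149216-53150176, had 58 reads in WDM-WDO, 41 in WDM-CDO and 36 in CDM-WDO, and was expected in CDM-CDO at 1.51 to 2.15 times the pileup needed. Both were missing from CDM-CDO, which had no call in the gene body. The remaining inside regions were called in the WDM lists alone, with 19 to 70 reads. Of these, the region 4.33 kb downstream reached 70 reads in WDM-WDO but only 2.43 times its local background. Of the 11 Abca1 regions that WDM-WDO had and CDM-WDO lacked, 1 was expected at 2 or more times the pileup needed and 2 below it. Of the 13 missing from CDM-CDO, 3 were expected at 2 or more times and none below it. Of the 6 Abca1 regions in WDM-CDO and not in CDM-CDO, none reached 2 times and 3 were expected below the pileup needed.

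Abcg1, on chr17:31057694-31117984, differed by position more than by number. Of its 10 merged regions, 6 lay inside the span, and these were called 5 times under WDM-WDO, 5 times under WDM-CDO, 2 times under CDM-WDO and 5 times under CDM-CDO. The region across its lower-coordinate end had 102 reads under WDM-WDO, 122 under WDM-CDO, 56 under CDM-WDO and 90 under CDM-CDO. Scaled, it stood at 82.6 reads under WDM-WDO (66.3 to 101), 78.6 under WDM-CDO (64.6 to 94.6), 60.9 under CDM-WDO (44.4 to 81.0) and 85.2 under CDM-CDO (67.5 to 106), and the 4 intervals overlapped.

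Inside Abcg1, CDM-WDO had the fewest regions called, 2 of 6. Over all regions near a gene, 7.13% were in every list but CDM-WDO. The region 3.25 kb from that end, chr17:31060496-31061437, had 93 reads under WDM-WDO, 116 under WDM-CDO, 39 under CDM-WDO and 94 under CDM-CDO. Its scaled ratio was 0.453 for CDM-WDO over CDM-CDO and 1.84 for WDM-WDO over CDM-WDO, both outside the spread of strong shared peaks. The region 9.55 kb in, chr17:31066599-31068010, had 90 reads in WDM-WDO, 168 in WDM-CDO and 84 in CDM-CDO, but no call in CDM-WDO. In CDM-WDO, 2.24 times the pileup needed was expected from WDM-WDO, 3.01 times from WDM-CDO and 2.37 times from CDM-CDO. At 168 reads it was the tallest member peak in any list, with scaled ratios of 1.39 for WDM-CDO over CDM-CDO and 0.653 for WDM-WDO over WDM-CDO, both outside the spread. The regions 15.8 and 20.04 kb in were likewise called in every list but CDM-WDO, where the pileup expected was 1.16 to 1.90 times that needed. The region 20.04 kb in had 54 reads under WDM-WDO, 100 under WDM-CDO and 74 under CDM-CDO. WDM-WDO was low there, with a scaled ratio of 0.641 over WDM-CDO and of 0.596 over CDM-CDO, both outside the spread.

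Among the Abcg1 regions, 1 was called in both WDO lists and in neither CDO list. Over all regions near a gene, 1.52% were in the WDO lists alone and 6.26% in the CDO lists alone. The region 17.8 kb in, chr17:31074759-31075752, had 92 reads for WDM-WDO and 48 for CDM-WDO, its summit lying at the same base in both, and no call in either CDO list. In WDM-CDO 2.33 times the pileup needed was expected from WDM-WDO and 1.85 times from CDM-WDO, and in CDM-CDO 2.07 times from WDM-WDO and 1.65 times from CDM-WDO. The region 57.2 kb in was called in both CDO lists instead, with 42 reads for WDM-CDO and 39 for CDM-CDO, and was expected in the WDO lists at 1.08 to 1.58 times the pileup needed. Outside the gene, the region 17.9 kb before the lower-coordinate end was in all lists, with 64 reads under WDM-WDO, 47 under WDM-CDO, 42 under CDM-WDO and 39 under CDM-CDO. Its scaled ratio was 1.77 for WDM-WDO over WDM-CDO, above 0.714 to 1.40, and 1.46 for WDM-WDO over CDM-CDO, just above 0.686 to 1.44. Its scaled intervals overlapped across all lists. They were 37.2 to 65.1 reads under WDM-WDO, 19.5 to 38.4 under WDM-CDO, 29.9 to 61.8 under CDM-WDO and 22.9 to 48.5 under CDM-CDO. The regions called in 1 list had 32 reads (WDM-CDO, 23.2 kb before that end) and 17 reads (CDM-WDO, 11.6 kb before it).

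Scarb1, on chr5:125277087-125341094, had 6 merged regions, of which 2 were in all lists, where 24.6% of all regions near a gene were. The region across its upper-coordinate end had 81 reads under WDM-WDO, 86 under WDM-CDO, 34 under CDM-WDO and 45 under CDM-CDO. Both WDM lists were higher than both CDM lists before scaling. The scaled ratio was 1.86 for WDM-WDO over CDM-WDO, outside the 0.730 to 1.35 of strong shared peaks, and 1.35 for WDM-CDO over CDM-CDO, above the 1.28 at the upper edge of its spread. It was 0.856 for CDM-WDO over CDM-CDO and 1.18 for WDM-WDO over WDM-CDO, inside the spread, and 1.61 for WDM-WDO over CDM-CDO, outside it. After scaling the values were 64.5 reads under WDM-WDO (50.1 to 81.4), 54.3 under WDM-CDO (42.7 to 67.9), 34.4 under CDM-WDO (21.8 to 50.7) and 40.2 under CDM-CDO (28.0 to 55.4). The intervals of WDM-CDO and CDM-CDO overlapped, and those of WDM-WDO and CDM-WDO overlapped only at their edges, near 50 reads.

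The other shared Scarb1 region lay 31.0 kb beyond the lower-coordinate end, chr5:125245758-125246136, with 51 reads under WDM-WDO, 95 under WDM-CDO, 31 under CDM-WDO and 51 under CDM-CDO. WDM-CDO was the high list there, with scaled ratios of 1.31 over CDM-CDO and of 0.635 for WDM-WDO over WDM-CDO, both outside the spread of strong shared peaks, as was 0.666 for CDM-WDO over CDM-CDO. The scaled intervals of each of these pairs overlapped. They were 27.4 to 52.5 reads under WDM-WDO, 48.1 to 74.6 under WDM-CDO, 18.8 to 46.4 under CDM-WDO and 33.1 to 62.2 under CDM-CDO. The remaining 4 Scarb1 regions were each in 1 list, with 32 and 36 reads in CDM-WDO, 36 in WDM-CDO and 47 in WDM-WDO. The only region inside the Scarb1 span was a CDM-WDO peak of 36 reads.

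Apoe, on chr7:19696244-19701310, lies 3 bp from Tomm40 and 3.58 kb from Apoc1, so a peak beyond its ends goes to a neighbour wherever that gene is nearer. In WDM-WDO a peak of 41 reads lay at chr7:19698649-19699116, between the upstream and the second start site, 329 bp downstream of the first and 238 bp upstream of the second. It stood at 2.41 times its background with a -log10 q of 4.50. It was a weak call, expected at 1.42 times the pileup needed under WDM-CDO, 1.12 times under CDM-WDO and 1.25 times under CDM-CDO, and a -log10 q of 5 or more would have left it out. Near the downstream end of the gene, chr7:19696323-19697016 had 63 reads in WDM-CDO and 62 in CDM-CDO, a scaled ratio of 0.678, which lay below the 0.753 to 1.28 of strong shared peaks. That region had no call in WDM-WDO, where 1.72 times the pileup needed was expected from WDM-CDO and 2.13 times from CDM-CDO, nor in CDM-WDO, where 1.45 times was expected from WDM-CDO and 1.82 times from CDM-CDO. Apoe thus had a peak at its downstream end in the CDO lists, a peak between start sites in WDM-WDO, and none in CDM-WDO.

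**Figure D5:**
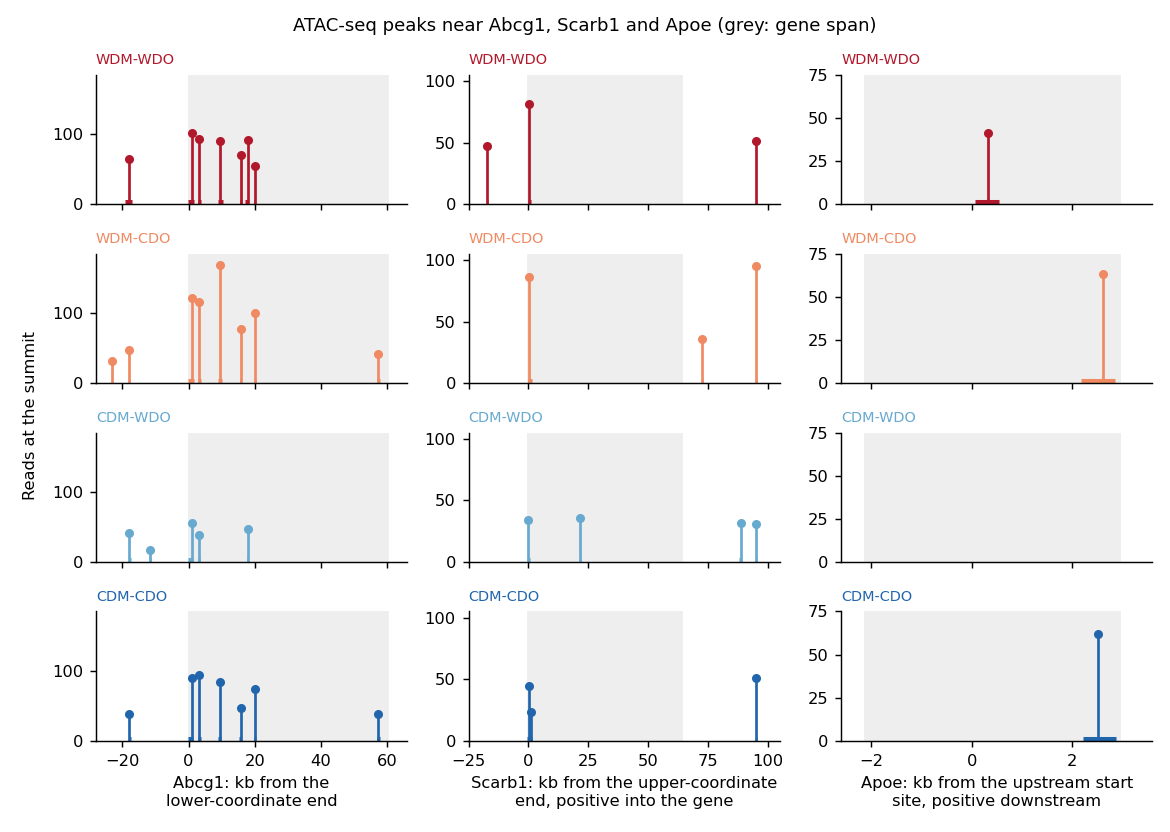
Peaks of Abcg1, Scarb1 and Apoe by distance of the summit in kb from the gene end with a gene-end peak (Abcg1, Scarb1) or from the upstream start site (Apoe), 1 row per diet group, with the recovered pileup in reads as the height of each stem and the gene span in grey. The Abcg1 region at 17.8 kb is in the WDO lists only, and CDM-WDO has no Apoe peak.

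Other genes of cholesterol export and its control were taken as a list of 32, of which 25 had a region in at least 1 list. The 7 without one count as equal below, while the shares given beside the list are over genes with a region. Peaks assigned to them numbered 71 under WDM-WDO, 63 under WDM-CDO, 32 under CDM-WDO and 44 under CDM-CDO, and 18 under WDM-WDO, 19 under WDM-CDO, 14 under CDM-WDO and 18 under CDM-CDO of the 32 genes had a gene-end peak. In WDM-WDO against CDM-WDO, 17 of the 32 had more peaks and 0 had fewer, where 40.3% of the 16239 genes with a region had more and 12.2% fewer. In WDM-CDO against CDM-CDO, 13 had more and 0 fewer, with 32.8% and 11.4% over those genes. In both pairs the list with more peaks also had the taller strong shared peaks. In CDM-WDO against CDM-CDO, 4 had more and 11 fewer (15.8% and 31.3% of genes with a region), and in WDM-WDO against WDM-CDO, 10 had more and 7 fewer (22.3% and 28.6%). In WDM-WDO against CDM-CDO, 14 had more and 3 fewer (30.3% and 17.9%). The median difference was 1 peak for the list and 0 for genes with a region in WDM-WDO against CDM-WDO, and 0 for both in the other comparisons.

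The 5 LXR and RXR genes together had 12 peaks under WDM-WDO, 7 under WDM-CDO, 4 under CDM-WDO and 5 under CDM-CDO. Nr1h3, which encodes LXRα, had 4 peaks under WDM-WDO, 2 under WDM-CDO, 1 under CDM-WDO and 2 under CDM-CDO, and a gene-end peak in every list. Rxra, the partner receptor, had 5 under WDM-WDO, 2 under WDM-CDO, 1 under CDM-WDO and 1 under CDM-CDO. The counts of Nr1h3 and Rxra were highest in WDM-WDO, as for Abca1. Each of the other receptor genes had at most 1 peak in any list, and none was highest in WDM-WDO alone. Nceh1, which frees cholesterol from its stored esters, had 7 peaks under WDM-WDO, 5 under WDM-CDO, 3 under CDM-WDO and 2 under CDM-CDO. Npc2, which carries cholesterol out of lysosomes, had 5 under WDM-WDO, 4 under WDM-CDO, 1 under CDM-WDO and 2 under CDM-CDO.

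Several genes of the list lacked a gene-end peak in CDM-WDO or were highest in other lists. Abca7 and Abcg4, both transporters related to the members, had 1 peak each in WDM-WDO, WDM-CDO and CDM-CDO and none in CDM-WDO. Pltp, which transfers phospholipid between lipoproteins, had 3 peaks under WDM-WDO, 2 under WDM-CDO, 0 under CDM-WDO and 1 under CDM-CDO. All 3 genes thus had no peak in CDM-WDO. That list was also the shortest, and 11872 of the 16239 genes with a region had a peak in it. Arl4c, an LXR target in macrophages, had 6 peaks under WDM-WDO, 8 under WDM-CDO, 2 under CDM-WDO and 7 under CDM-CDO, highest under WDM-CDO and lowest under CDM-WDO as for Abcg1. Srebf1, the LXR target that drives fatty acid synthesis, had 4 peaks under WDM-WDO, 4 under WDM-CDO, 2 under CDM-WDO and 3 under CDM-CDO, and a gene-end peak in the WDM lists alone. Lpcat3, an LXR target that remodels phospholipids, had 2 under WDM-WDO, 4 under WDM-CDO, 2 under CDM-WDO and 1 under CDM-CDO. Gramd1b and Gramd1c encode carriers of cholesterol from the plasma membrane to the endoplasmic reticulum. Gramd1b had 8 peaks in WDM-WDO and 4 in each other list, and Gramd1c had 1 peak under WDM-WDO, 2 under WDM-CDO, 0 under CDM-WDO and 1 under CDM-CDO. Apoc1, the neighbour of Apoe, had none in any list.

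Genes with a like pattern were those with the smallest sum, over the 4 lists, of absolute differences in peak number. For Abca1 these were Tomm20 (sum 5), Tnfaip3 (7), Snx29 (9), Zmiz1 (9) and Creb5 (10), and Tomm20 had 15 peaks under WDM-WDO, 12 under WDM-CDO, 10 under CDM-WDO and 6 under CDM-CDO. For Abcg1, Frmd4b, Mid1, Sertad2, Ywhaz and Zfp36l2 each differed by a sum of 1. For Scarb1, 7 genes had identical counts, among them Gm33989, Klf10, Nr4a2 and Piezo1. Likeness of counts over 4 lists is loose where counts are low.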

How the data were processed

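ATAC-seq peaks of mouse aortic endothelial cells were analysed as 4 narrowPeak lists, 1 per diet group, assigned by the sample titles. Pooling of the 2 samples of a group before peak calling is neither stated nor denied by the labels. Data for the histone mark H3K27ac (4 samples) were not used here. According to the submitters' processing notes, MACS2 2.2.9.1, Bowtie2 2.4.5, deepTools 3.5.4, SAMtools 1.13, Trim Galore 0.6.10 and FastQC 0.12.1 were used, with GRCm38 (mm10). The fold enrichment of each peak, a ratio over local background, was used as the authors deposited it. The -log10 p and -log10 q were likewise those the authors deposited. The peak scores are the authors' own, and the display score was not used. The lowest -log10 q was 1.30 to 1.31.

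The members and gene lists were chosen with earlier results of these data known. A peak was assigned to the protein-coding gene of RefSeq GRCm38.p6 with the nearest span within 100 kb on chromosomes 1 to 19 and X, and peaks were merged at an overlap of 1 bp. That gene table gives no strand, so start sites were used for Abca1 and Apoe alone, from the promoter table, and exons were not annotated. Pileups were recovered as whole reads from the fold and the Poisson -log10 p within a relative tolerance of 0.0001, for 99.87 to 99.98% of peaks, and the recovery was tested on simulated data. Strong peaks were the top 10% by -log10 p in both lists. Intervals are exact Poisson and cover counting error only. The comparison of WDM-WDO with CDM-CDO was added after the data were seen. The planned LXR letters, GGTCA repeated after 4 bases, space the repeat more closely than an LXR element does and were in 0.0457% of promoter windows, so 2 spellings were added. All 4 members were named; of the other pathway genes, those with a difference of 3 or more peaks, a gene-end peak in some lists only or a member as neighbour; and the 5 genes most like each member with at least 6 regions, of which 1 is not reported here. Python 3.11.15, NumPy 2.4.6, pandas 2.3.3 and SciPy 1.17.1 were used.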

Additional observations from a re-analysis of the deposited data

How the results depend on the processing

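No paired analysis was possible because each group has 1 peak list with no columns for its samples, and leaving out a replicate was not possible for the same reason. Assigning peaks to genes within 10 kb left 19 member peaks under WDM-WDO, 15 under WDM-CDO, 7 under CDM-WDO and 10 under CDM-CDO, 1 region in CDM-WDO only against WDM-WDO, and 3 in CDM-WDO only against CDM-CDO. A -log10 q of 5 or more left 4 regions in WDM-CDO only against CDM-CDO, and, between WDM-WDO and WDM-CDO, 8 in WDM-WDO only and 2 in WDM-CDO only. It left 4 peaks inside Abca1 in WDM-WDO and 2 in WDM-CDO. With lists of equal length (18962 peaks), 3 regions were in WDM-CDO only against CDM-CDO, 3 in WDM-CDO only against WDM-WDO, and 5 peaks lay inside Abca1 in WDM-WDO and 2 in WDM-CDO. Keeping only regions expected at 2 or more times the pileup needed at the genome background left 2 in WDM-CDO only against CDM-CDO, 9 in WDM-WDO only against CDM-WDO, and 2 in WDM-CDO only against WDM-WDO.

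At the local background, an alternative chosen after seeing the data, 0 regions remained in WDM-CDO only against CDM-CDO. Between WDM-WDO and CDM-WDO the counts were 2 in WDM-WDO only and 0 in CDM-WDO only. Between CDM-WDO and CDM-CDO they were 0 in CDM-WDO only and 1 in CDM-CDO only. Between WDM-WDO and WDM-CDO they were 4 in WDM-WDO only and 0 in WDM-CDO only, and between WDM-WDO and CDM-CDO 4 in WDM-WDO only and 1 in CDM-CDO only. These filters keep fewer regions by construction. Without scaling, also chosen after seeing the data, 5 of the 15 ratios at gene ends moved beyond their counting error. For WDM-CDO over CDM-CDO they became 1.57 at Abca1, 1.37 at Abcg1 and 2.0 at Scarb1, and for WDM-WDO over CDM-WDO 2.43 at Abca1 and 1.90 at Abcg1. The counts inside Abca1 under other thresholds were likewise added after seeing the data. Measuring from the summit, an overlap of 50% of the shorter peak, and scaling by shared gene-end peaks left all member counts within 1.5 times and all 15 scaled ratios at gene ends within their counting error.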
